A study of Oryza sativa with 6 samples.

Results

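The metallothionein genes of rice (Oryza sativa) were examined in shoots of wild-type plants and of plants of the dst mutant line. The genes were found by name, as those that the gene table lists under a name starting with OsMT-I or OsMT-II, or as MT1 to MT4 plus a letter. This gave 9 genes, of which 7 are read by at least 1 probe set (a group of short array probes for 1 transcript) that the platform annotation assigns to them alone, out of 17905 genes read in this way on the whole array. The 7 genes are OsMT-I-1a, OsMT-I-1b, OsMT-I-2a, OsMT-I-2b, OsMT-I-2c, OsMT-I-4a and OsMT-I-4c, and they have 17 probe sets. OsMT-I-4b is read only by a probe set that it shares with other genes, and OsMT-II-1a has none in the annotation, so neither has a value of its own. The limit of 10 genes, beyond which signal would have decided, was not reached. OsMT-I-1b was chosen by its difference in signal between the lines, seen in earlier results of these data. That difference is therefore described without a test.

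Both groups were shoots of seedlings aged 25 days, kept in a growth chamber under a day of 11 h (26 °C) and a night of 13 h (22 °C), with no treatment named. The wild type was the japonica cultivar Zhonghua 11, with 3 biological replicates, and the dst mutant line also had 3. The labels of the mutant samples give the line and no cultivar or allele, and the mutant is represented by this 1 line. The DST gene encodes a zinc finger transcription factor, known for its control of stomata through hydrogen peroxide when rice meets drought or salt. Values are signals on a linear scale in arbitrary units, 1 per probe set and array, and the number of arrays limits their precision. The labels do not say whether the biological replicates came from separate sowings. In whole shoots, fewer cells of a type and less RNA per cell cannot be told apart.

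Metallothioneins are small proteins rich in cysteine, whose thiol groups bind zinc, copper and, in many species, cadmium. Those of plants are sorted into types by the arrangement of their cysteines, and the names of the rice genes follow such types. Besides holding and passing on metals, some are known to scavenge reactive oxygen species. In rice, OsMT-I-1a (also OsMT1a) is known for a part in zinc balance and drought tolerance, and OsMT-I-2c (also OsMT2b) as a scavenger of reactive oxygen. The older numbering differs from the one used here. The gene table gives OsMT1b as another name of OsMT-I-4a and not of OsMT-I-1b, and OsMT1c as another name of OsMT-I-4c.

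The brightest signal of an array was 31460.7 on wild-type replicate 3 and 32619.5 on dst replicate 3, below the 41451.3 to 43118.5 of the other arrays. Many metallothionein probe sets are bright, and their values on these replicate 3 arrays are given with the results. The log2 ratio of 3' to 5' GAPDH control signal lay between 1.01 and 1.36 for dst and between 0.35 and 0.62 for the wild type, without overlap, while the actin ratio overlapped. As a check of the tissue, 9 probe sets of green leaf markers (chlorophyll-binding and Rubisco small subunit genes among them) summed to between 121960.6 and 159960.1 on wild-type arrays and between 127991.8 and 154095.5 on dst arrays. The 14 probe sets of seed storage genes summed to 1330.6 to 1381.9 and 1105.0 to 1308.1, a low total that did not overlap between the groups. Of the 14, 11 were too dim to be tested, and in 2 of the other 3 the groups did not overlap. The brightest, of GLUA-2, averaged 656.5 in the wild type and 521.7 in dst and holds much of the total. The 4 probe sets of anther and pollen genes summed to 96.1 to 269.6 and 172.7 to 203.9. No marker probe set was listed at 0 on every array, and the names used for root markers matched no probe set in the annotation.

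OsMT-I-1b was lower on every dst array than on any wild-type array. Its single probe set read 6644.4, 6249.8 and 5554.3 in wild-type replicates 1, 2 and 3, and 2610.4, 2432.8 and 2077.5 in the dst replicates. The groups lay far apart, since even the highest dst value was far below the lowest wild-type value, and within each group replicate 3 was the lowest. The mean was 6149.5 ± 552 in the wild type and 2373.6 ± 271 in dst (SD, n = 3), which makes the wild-type mean 2.59 times that of dst. On the log2 scale the difference was -1.38 ± 0.12 (SE). This value chose the gene and is not support for a change in the family. Leaving out any array moved it between -1.45 and -1.28. The 3' to 5' ratio of the GAPDH controls separated the same arrays, as did the low summed signal of the seed storage genes, and their part in this difference was not tested.

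**Figure D1:**
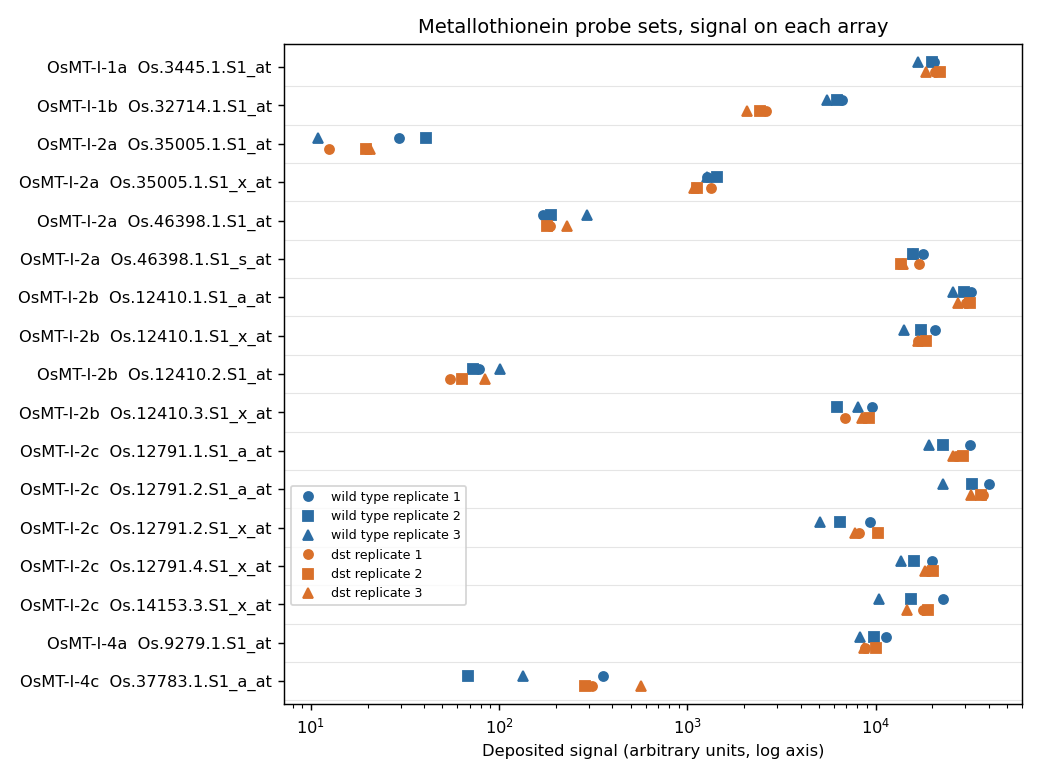
Signal of each of the 17 metallothionein probe sets on each of the 6 arrays, on a log axis in arbitrary units, with wild-type arrays in blue and dst arrays in orange and 1 marker shape per replicate. The wild-type and dst points of OsMT-I-1b, which was chosen for its difference, do not overlap. Those of the other 16 do, while 16.6% of all tested probe sets have groups that do not overlap. Signals of different probe sets are not comparable as transcript levels.

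OsMT-I-1a, the other gene of type 1 in the numbering used here, did not pass the test. It read 20459.9, 19924.3 and 16807.3 in the wild type and 20611.3, 22055.1 and 18477.8 in dst. The groups overlapped, and replicate 3 was again the lowest of each. The log2 change was 0.10 ± 0.12, with a 95% interval of -0.17 to 0.36 and an adjusted p of 0.843 in limma, a linear model fitted across all probe sets. That interval holds changes in either direction.

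Counted over the group, 16 of the 17 probe sets were bright enough to enter the fit. That of OsMT-I-1b, chosen for its difference, is left out of the counts. Of the other 15 none passed an adjusted p of 0.05, a count near the 0.924% of all tested probe sets that passed, and 1 of them, that of OsMT-I-4c, had an unadjusted p under 0.05, as had 10.5% of all. Of these 15, 10 had a higher mean in dst and 5 a lower one, beside 18122 higher and 16194 lower of all tested. Of the 10, 5 were of OsMT-I-2c and 3 of OsMT-I-2b. The median log2 change of the 15 was 0.05 against 0.02 over all tested probe sets. In none of the 15 were the groups apart, while 16.6% of all tested probe sets had groups that do not overlap. Several probe sets read the same gene. Those whose names end in x_at or s_at hold probes that can bind other transcripts. The 15 are therefore not independent of each other.

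**Figure D2:**
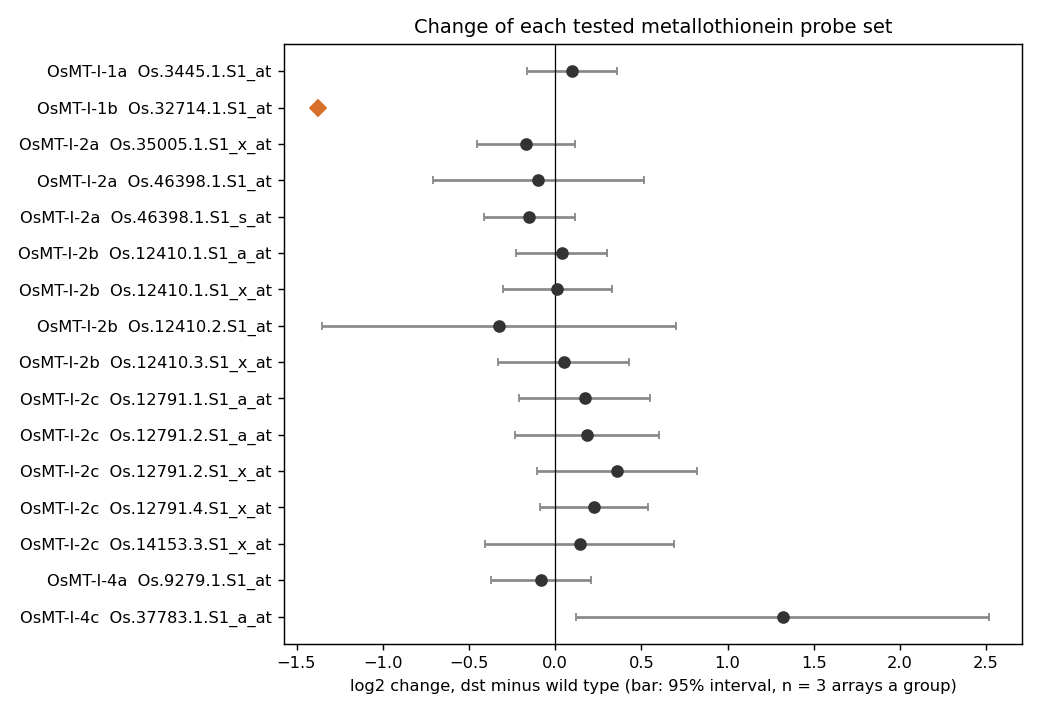
Change of each of the 16 tested metallothionein probe sets, as log2 signal in dst minus wild type with its 95% interval from limma (n = 3 arrays a group). OsMT-I-1b, chosen for its difference, is drawn as a diamond at -1.38 with no interval, the interval of OsMT-I-4c runs from 0.12 to 2.52, and the other 14 intervals include 0.

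OsMT-I-2c, the gene whose product is known as a scavenger of reactive oxygen, varied widely among wild-type arrays. Its brightest probe set read 40030.7, 32638.1 and 22695.5 in the wild type and 37029.7, 36391.8 and 32353.7 in dst. The wild-type values lay on both sides of the dst values, with replicate 1 above and replicate 3 below all of them. All 5 probe sets of the gene were highest on replicate 1 and lowest on replicate 3 of the wild type. The ratio of the highest to the lowest wild-type array was 1.47 to 2.21 over the 5 probe sets, against 1.10 to 1.33 in dst. Over all 1665 rice probe sets with a mean signal above 5000, the median of that ratio was 1.21 in the wild type and 1.17 in dst, with a 95th percentile of 1.62 and 1.53. The 5 differences between the groups were all above 0, from 0.14 ± 0.24 to 0.36 ± 0.21 on the log2 scale (SE). Adjusted p ran from 0.612 to 0.897 in limma, so none passed. Without wild-type replicate 3, the brightest probe set gave -0.04 and another gave -0.14, so the direction of those 2 rested on that array.

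**Figure D3:**
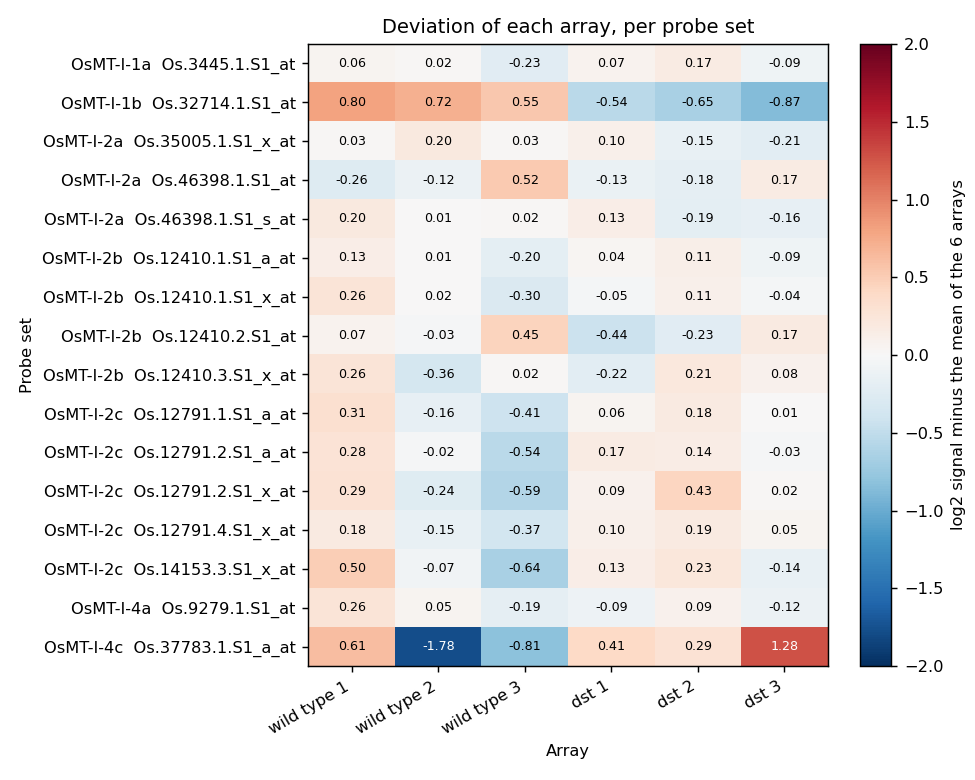
Log2 signal of each tested metallothionein probe set on each array, minus its mean over the 6 arrays, from blue (below) to red (above). The 5 probe sets of OsMT-I-2c stand at 0.18 to 0.50 on wild-type replicate 1 and at -0.64 to -0.37 on wild-type replicate 3, and OsMT-I-1b is above its mean on each wild-type array and below it on each dst array.

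The brightest probe set of OsMT-I-2b read 32140.6, 29588.2 and 25654.2 in the wild type and 30130.8, 31807.1 and 27538.9 in dst. These groups overlapped almost wholly, with a log2 change of 0.04 ± 0.12, a 95% interval of -0.23 to 0.30 and an adjusted p of 0.951 in limma. The next brightest gave 0.01 ± 0.14 and the one after it 0.05 ± 0.17. The dimmest of the gene averaged 84.1 ± 15.3 over wild-type arrays and 67.5 ± 14.8 over dst arrays (SD, n = 3). It measured -0.33 ± 0.46, which leaves room for a wide range of changes.

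OsMT-I-2a (also OsMT2a) had a lower mean in dst in each of its 4 probe sets. The brightest, whose name ends in s_at, read 17971.8, 15758.5 and 15848.4 in the wild type and 17096.5, 13719.4 and 14002.3 in dst. The groups overlapped through dst replicate 1, and the change of -0.15 ± 0.12 had an adjusted p of 0.733 in limma. The other tested probe sets gave -0.17 ± 0.13 and -0.10 ± 0.27, and the latter, unlike the brightest, was highest on replicate 3 of both groups. The dimmest lay below the filter on low signals and was not tested, with wild-type values of 10.9 to 40.7 and dst values of 12.5 to 20.7. Whether these dim probe sets detect the transcript is not known, as no detection calls were used.

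OsMT-I-4a and OsMT-I-4c stand near each other in gene order, with OsMT-I-4b, and neither passed the test. OsMT-I-4a read 11314.0, 9761.0 and 8303.8 in the wild type and 8846.9, 10061.6 and 8716.1 in dst. The dst values all lay inside the wild-type range, and the change of -0.08 ± 0.13 had an adjusted p of 0.889 in limma. A probe set that OsMT-I-4a shares with LOC4327982 gave 0.02 ± 0.10.

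OsMT-I-4c had the largest change of the 15 probe sets other than that of OsMT-I-1b, and the largest spread. It read 357.7, 68.4 and 133.3 in the wild type and 310.4, 287.0 and 568.4 in dst. Wild-type replicate 1 lay above dst replicates 1 and 2, so the groups overlapped, while the other wild-type arrays lay below every dst array. The mean was 186.5 ± 152 in the wild type and 388.6 ± 156 in dst (SD, n = 3). The log2 change was 1.32 ± 0.53, with a 95% interval of 0.12 to 2.52, an unadjusted p of 0.0341 and an adjusted p of 0.415 in limma, so it did not pass. It was 1.95 without wild-type replicate 1, with an adjusted p of 0.0821, and 0.76 without wild-type replicate 2, with an adjusted p of 0.712. A probe set shared by OsMT-I-4c, OsMT-I-4b and LOC4352564 read 338.9, 118.1 and 106.0 in the wild type and 254.8, 228.6 and 622.6 in dst. There too wild-type replicate 1 stood above its group and dst replicate 3 was the highest of all arrays, and the change of 1.03 ± 0.50 had an adjusted p of 0.524 in limma. The 2 probe sets can bind the same transcripts and do not repeat the measurement.

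The bright metallothionein probe sets as a set leaned with single arrays in the wild type. Of the 11 with a mean signal above 5000, all 11 were highest on wild-type replicate 1 and 9 were lowest on wild-type replicate 3. All 5 probe sets of OsMT-I-2c and several of OsMT-I-2b are among these 11, so they are not independent readings. Of all rice probe sets above that signal, 37.5% were highest on replicate 1 and 55.0% lowest on replicate 3 of the wild type. In dst, 2 of the 11 were highest on replicate 1 and 8 lowest on replicate 3. The bright 3' actin control read 23926, 17048.1 and 12160.2 in the wild type and 21409, 18036.7 and 14324 in dst. The 3' GAPDH control read 18619.8, 18819.9 and 15304.7 in the wild type and 18780, 18165.3 and 14778.8 in dst. Both controls were lowest on replicate 3 of each group, and in the wild type only actin was highest on replicate 1. Whether the lower ceiling of the replicate 3 arrays moved these values was not tested.

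The measured genes around OsMT-I-1b in gene order were examined after its values had been seen. None of the 10 measured genes on either side passed in limma, where 0.987% of all genes passed with 1 probe set each. An unadjusted p under 0.05 was found for 4 of the 20, or 20%, and for 12.6% of all genes. Their log2 changes ran from -0.50 to 0.49 with a median of 0.07. A higher mean in dst was found for 14 of 20, and for 18122 of all 34316 tested probe sets. The nearest measured genes were OsPDIL5-1, of the protein disulfide isomerase family, at 0.03 ± 0.11, and LOC4332488 at 0.11 ± 0.11.

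**Figure D4:**
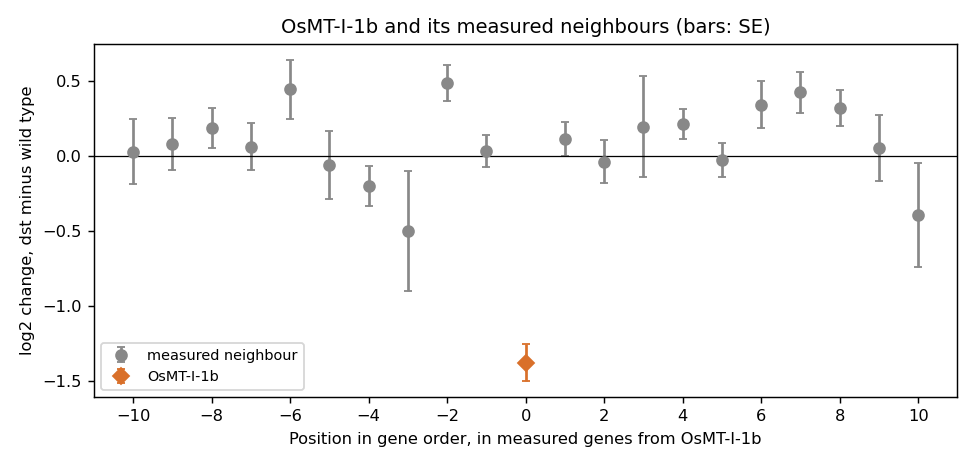
Log2 change between dst and wild type (with its SE) of OsMT-I-1b and of the 10 nearest measured genes on either side, against their place in gene order. The neighbours run from -0.50 to 0.49, and OsMT-I-1b is at -1.38.

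The named genes whose signal followed OsMT-I-1b most closely over the 6 arrays were sought among 2762 probe sets of 2192 named genes. The 5 highest were OsPMM (Pearson r = 0.986), a phosphomannomutase gene, Hd1 (0.983), a heading date gene of the CONSTANS family, YSL6 (0.982), of the yellow stripe-like family of metal-chelate transporters, BGLU36 (0.982), a beta-glucosidase family gene, and APG8C (0.979), of the ATG8 family of autophagy proteins. These correlations hold the group difference itself and the shared arrays, so each of these genes had a lower mean in dst by construction. The size differed between them. Mean signals in wild type and dst were 2986.1 ± 51.9 and 2335.1 ± 117 for OsPMM, and 811.6 ± 44.8 and 469.0 ± 26.3 for BGLU36 (SD, n = 3). Hd1 was dim, at 103.2 ± 11.2 and 61.0 ± 6.2, near the filter on low signals. Its difference of -0.76 ± 0.42 (SE) had an adjusted p of 0.593 in limma. That of BGLU36 had an adjusted p of 0.0307 in limma, which is no support, as the pattern that picked it holds the group difference. The log2 differences of the 5 ran from -0.79 for BGLU36 to -0.26 for YSL6, all smaller than that of OsMT-I-1b.

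Other genes that handle metals had a lower mean in dst more often than a higher one, and none passed the test. The list, taken by name, holds 51 genes with 57 probe sets, which cover ZIP, NRAMP, MTP and yellow stripe-like transporters, heavy metal ATPases, copper and vacuolar iron transporters, nicotianamine and phytosiderophore synthesis, and regulators. Of 51 tested probe sets none rose or fell in limma, where 0.924% of all passed. An unadjusted p under 0.05 was found for 6, or 11.8%, beside 10.5% of all tested probe sets. A lower mean in dst was seen in 35 and a higher one in 16, beside 16194 lower and 18122 higher of all 34316 tested. The median log2 change was -0.14, beside 0.02 over all tested probe sets. Genes of 1 family can vary together, so the 51 are not independent of each other. Some genes of different families also shared a pattern over the dst arrays. NAS1 read 5388.3, 10305.4 and 15219.0 in dst replicates 1, 2 and 3, and IRT1 read 113.0, 174.7 and 231.8. On dst replicate 3 NAS1 was above its wild-type mean of 13220.9. The pattern was not general, as MTP1 read 2746.7, 2509.8 and 2267.0 in the same order. The groups did not overlap in 9 of the 51, or 17.6%, close to the 16.6% of all tested probe sets. The median was -0.25 over 12 yellow stripe-like probe sets, -0.06 over 10 of the ZIP family and -0.11 over 10 of the NRAMP family. The 3 heavy metal ATPase probe sets all had a lower mean in dst, with a median of -0.26.

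YSL15, which is known to take up iron chelated by phytosiderophores, had the smallest p of this list. It read 547.4, 571.0 and 613.9 in the wild type and 150.4, 250.2 and 477.8 in dst. All dst values were lower, but they spread over 3.18 times from lowest to highest. The change of -1.14 ± 0.35 had an adjusted p of 0.255 in limma, and without dst replicate 3 it was -1.57, where the adjusted p was 0.0274. YSL6 read 3761.1, 3792.5 and 3663.0 in the wild type and 3226.7, 3215.1 and 2958.7 in dst. Its difference of -0.26 ± 0.10 had an adjusted p of 0.373 in limma and did not pass.

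**Figure D5:**
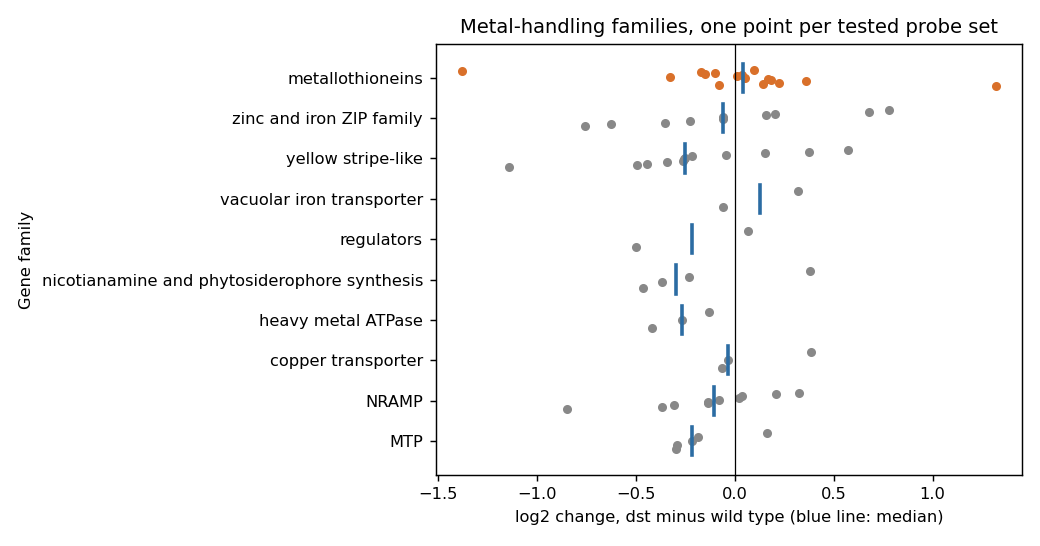
Log2 change between dst and wild type of each tested probe set of the metal-handling families (grey) and of the metallothioneins (orange), with the median of each family as a blue line. Medians of the metal-handling families lie between -0.30 and 0.13, and the metallothionein median is at 0.04, with OsMT-I-1b at -1.38 and OsMT-I-4c at 1.32 at the ends.

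Enzymes that remove hydrogen peroxide and superoxide, the other task with which metallothioneins are linked, were divided between higher and lower means. Of 29 tested probe sets of 18 genes none passed in limma, where 0.924% of all passed, and 5, or 17.2%, had an unadjusted p under 0.05, beside 10.5% of all. The dst mean was higher in 16 and lower in 13, beside 18122 higher and 16194 lower of all tested probe sets. The median log2 change was 0.01. The groups did not overlap in 6 of the 29, or 20.7%, beside 16.6% of all tested probe sets. The smallest p was that of APX7, of the ascorbate peroxidase family, which read 1035.8, 866.6 and 951.8 in the wild type and 1395.6, 1225.8 and 1284.9 in dst. Every dst value was higher, and the change of 0.45 ± 0.12 had an adjusted p of 0.188 in limma.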

How the data were processed

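The deposited table gives, for every array, 1 linear signal intensity for each probe set. The software behind it is not given in the sources used here. Total shoot RNA was labelled with biotin, per the labels' protocols. After trimming 2% of values at either end, every array had a mean of 500.1, so the authors appear to have scaled the arrays before deposit. A floor of 1 was applied before log2. Leaving out 187 control and reporter probe sets gave 57194 for rice, and a filter at the 40th percentile of mean log2 signal (70.5 on the linear scale) gave 34316 to test. The test was limma 3.58.1 in R 4.3.3, with a mean-variance trend and no covariate, Benjamini-Hochberg adjustment over all 34316 and a threshold of 0.05. It was tested on simulated data. Names come from the platform annotation, in which 22436 probe sets have 1 gene, and from RefSeq's gene table (ASM3414082v1), which also gave gene order. Genes and lists were chosen with earlier results of these data known. Named genes are all members, the 5 named genes most correlated with OsMT-I-1b, and the smallest p of each list. For neighbours, the probe set with the highest mean log2 signal stood for its gene. Sequences were not analysed here. Replicate numbers were not used to pair the samples in the main fit. Deviations from the group means correlated at 0.05, 0.05 and 0.20 between the arrays of replicates 1, 2 and 3. These values cannot say whether arrays of the same number share a batch, and that was not tested. Alternatives covered normalization, filter, offset, variance model, array weights, blocks, threshold and each array left out.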

Additional observations from a re-analysis of the deposited data

How the results depend on the processing

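The log2 change of OsMT-I-1b, which chose the gene, lay between -1.45 and -1.28 over 15 alternatives, given as a description. The other 15 tested probe sets kept their direction, with no call, in 212 of 223 comparisons with alternatives. The direction turned in 11, in probe sets whose log2 change in the main setting lay between -0.097 and 0.185. With median centring the second brightest probe set of OsMT-I-2b turned to -0.02. With 1 array left out, ranges that crossed 0 were -0.251 to 0.14 for the dimmest tested probe set of OsMT-I-2a, and, from the brightest down, -0.051 to 0.112, -0.132 to 0.147 and -0.115 to 0.194 for the bright probe sets of OsMT-I-2b. They were -0.038 to 0.371 for the brightest and -0.142 to 0.429 for the next to dimmest probe set of OsMT-I-2c, and -0.194 to 0.029 for OsMT-I-4a. Over all probe sets 317 passed, 135 higher and 182 lower in dst. The count changed to 606 with both replicate 3 arrays as a block, 532 with array weights, 80 with no variance trend, 122 at the stricter threshold of 0.01, and 115 to 281 with 1 array left out, in fits of fewer samples. The split was 102 higher and 192 lower with median centring, and 134 and 124 without wild-type replicate 1. The cause was not tested for the trend, weights or block, and a lower threshold must give a lower count. With the replicate block 463 passed. The numbers share no source in the labels, and the block changed 1 call of the lists given here, that of APX1, an ascorbate peroxidase gene, which passed at 0.54 with an adjusted p of 0.0221, so that 1 scavenging probe set passed. Among metal-handling probe sets the count was 0 to 1 with 1 array left out, the 1 being YSL15. No detection calls were used, so how far the dim probe sets stand above background is not known.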

Other observations

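Around OsMT-I-2a, 2 of the 20 nearest measured genes passed in limma, against 0.987% of all genes with 1 probe set each. Mean signals in wild type and dst were 72.1 and 495.3 for LOC4325215, and 106.7 and 776.4 for LOC4325213. OsMT-II-1a, which has no probe set of its own, has 3 such genes among its 20 nearest, all lower in dst. They are LOC4349258 at -0.84 ± 0.15, LOC4349257 at -3.65 ± 0.58 and LOC4349255 at -2.66 ± 0.49 on the log2 scale (SE). The probe sets of LOC4349257 and LOC4349255 have names ending in x_at, so they can bind other transcripts. None of the 20 nearest measured genes of OsMT-I-1a, OsMT-I-2b, OsMT-I-2c, OsMT-I-4a, OsMT-I-4b or OsMT-I-4c passed in limma. In each, 2 to 4 of 20 had an unadjusted p under 0.05, beside 12.6% of all genes. That number was 5 of 20 for OsMT-I-2a and 9 of 20 for OsMT-II-1a. The neighbours of OsMT-I-4a include OsMT-I-4c and the reverse, and these 2 sets are largely the same genes. Those of OsMT-I-4b, which has no probe set of its own, include OsMT-I-4a and OsMT-I-4c and share genes with both sets. All these neighbours were looked at after the values of the metallothioneins had been seen.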
